A study of Mus musculus with 335 samples.

Results

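The cell adhesion genes Cdh2, Cdh11 and Ncam1 were followed by name through the deposited table of estimated counts, in which all 3 were found among 13448 entries with a gene symbol. They were chosen by their levels in these same groups, known from an earlier look at the data, so those levels are given as a description. The data are single cells of the aorta-gonad-mesonephros (AGM) region, the embryonic tissue around the dorsal aorta in which blood stem cells arise, and all came from wild-type mouse embryos at E11.5. Sorting had placed them in 4 groups. HSC comprised 65 EPCR+CD45+ cells, a fraction that includes the blood stem cells. Dorsal (93 cells) and Ventral (89 cells) were both Ngfr+Pdgfrb- and were taken from opposite sides of the aorta. The labels call them sympathoadrenal, the crest-derived lineage of sympathetic neurons and chromaffin cells. Mesenchymal comprised 88 Pdgfrb+Ngfr- cells taken ventrally, where the mesenchyme under the aorta lies. Every group was sequenced as 1 pool with no animal named. A group was therefore counted as 1 sample, no test was run, and groups cannot be told apart from pools.

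Classical cadherins bind their own kind on the neighbouring cell in the presence of calcium and are tied to actin inside the cell through catenins. Cdh2 encodes N-cadherin, a type I cadherin of neural, crest-derived and many mesenchymal cells. Cdh11 encodes a type II cadherin first known from osteoblasts and typical of mesenchyme. Ncam1 encodes the neural cell adhesion molecule, an immunoglobulin superfamily protein that works without calcium, is made as several splice forms, and can carry polysialic acid, a sugar chain that loosens adhesion. All 3 genes lie on the minus strand of GRCm38. Cdh2 spans chromosome 18, 16588877 to 16809246, Cdh11 chromosome 8, 102632095 to 102785642, and Ncam1 chromosome 9, 49502136 to 49798925.

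The sorted surface proteins were matched by their RNA in most but not all groups. At least 5 counts of Ptprc, which encodes CD45, were found in 60 of 65 HSC cells, and of Procr, which encodes EPCR, in 55. Pdgfrb had at least 5 counts in 70 of 88 Mesenchymal, 4 of 93 Dorsal and 5 of 89 Ventral cells. Ngfr had at least 5 counts in 81 of 93 Dorsal but 47 of 89 Ventral cells. Group totals ran from 68560755 to 110598792 counts, and totals of single cells from 126979 to 20481041. Ventral 41, the deepest cell, took up 18.5% of the Ventral counts, and some values that depend on it are also given without it. All other Ventral sums include it and can move without it, as Cdh6 did from 101 to 124 CPM.

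The 3 genes had different orders across the groups. Cdh2 was highest in Dorsal, Cdh11 in Mesenchymal, Ncam1 in Mesenchymal with Dorsal and Ventral nearly level, and all 3 were close to absent in HSC. Levels are counts summed over the cells of a group per 1000000 counts of that group (CPM). Their exact 95% Poisson limits speak for counting error alone. A fold is given as a ratio of CPM or as the log2 ratio after 1 is added to both CPM values. As a technical split, cells with odd and even numbers of the i7 index, a library barcode, were also summed apart.

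**Figure D1:**
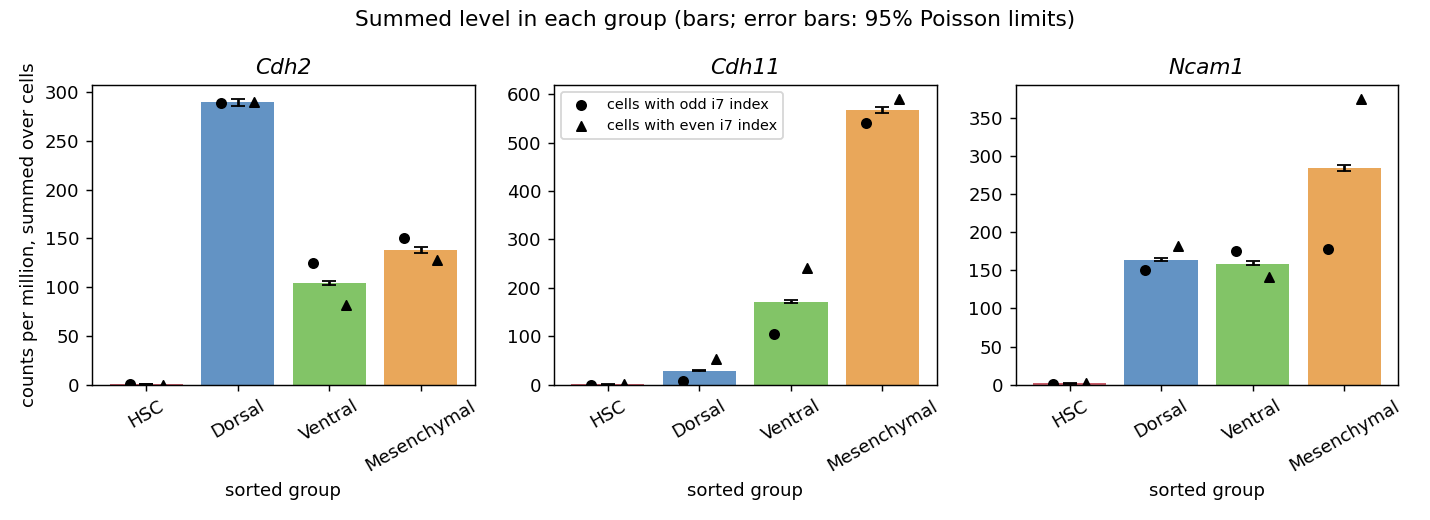
Summed level of Cdh2, Cdh11 and Ncam1 (vertical axis, CPM) in the 4 sorted groups (horizontal axis); bars are whole groups with 95% Poisson limits, circles and triangles the cells with odd and even i7 index. Cdh2 is tallest in Dorsal (290 CPM), Cdh11 in Mesenchymal (567 CPM), and the index sets lie far apart for Cdh11 in Dorsal (8.17 and 51.9 CPM) and Ventral (105 and 242 CPM) and for Ncam1 in Mesenchymal (178 and 375 CPM).

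Cdh2 stood at 290 CPM (286 to 293) in Dorsal, 138 CPM (135 to 141) in Mesenchymal, 104 CPM (102 to 106) in Ventral and 0.285 CPM (0.181 to 0.425) in HSC. In single Dorsal cells it ran from 0 to 778 CPM with a median of 269, in Ventral cells from 0 to 672 with a median of 115, and in Mesenchymal cells from 0 to 662 with a median of 156. The 3 groups overlapped widely, although 69 of 93 Dorsal cells lay above the Ventral median and 13 of 89 Ventral cells above the Dorsal median. Dorsal was 2.79-fold (2.73 to 2.85) higher than Ventral, a log2 fold of 1.47, which fell short of 2-fold with cells weighted equally, at 0.92. Dorsal was 2.10-fold (2.06 to 2.15) higher than Mesenchymal, a log2 fold of 1.07 that was 0.68 with cells weighted equally. Ventral and Mesenchymal were close, at a log2 fold of -0.40 for Ventral over Mesenchymal that shrank to -0.11 without Ventral 41, which held 2 Cdh2 counts in 20481041. Most of the difference between these 2 neighbours in the summed level therefore rests on 1 cell.

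Cdh11 was lowest in Dorsal among the non-blood groups and highest in Mesenchymal. It stood at 567 CPM (562 to 573) in Mesenchymal, 171 CPM (169 to 174) in Ventral, 28.3 CPM (27.3 to 29.3) in Dorsal, and HSC had 0.308 CPM (0.200 to 0.453). Single Mesenchymal cells ran from 0.802 to 2057 CPM with a median of 400, and none of the 88 was at 0. Ventral cells ran from 0 to 1322 CPM with a median of 18.3 and an upper quartile of 125, so a minority of cells was high. Dorsal cells had a median of 0 and a highest value of 683 CPM, with 56 of 93 cells at 0. Only 1 Dorsal cell and 10 Ventral cells exceeded the Mesenchymal median.

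Ventral was 6.05-fold (5.82 to 6.28) higher than Dorsal in Cdh11, a log2 fold of -2.55 for Dorsal over Ventral. A single cell, Dorsal 61, held 42.9% of the Dorsal counts, and without it Dorsal stood at 16.5 CPM and the log2 fold at -3.30. Mesenchymal was 3.31-fold (3.26 to 3.37) higher than Ventral and 20-fold (19.3 to 20.8) higher than Dorsal. For Ventral over Mesenchymal the log2 fold was -1.72, with -2.36 among cells of odd index and -1.28 among those of even index. For Dorsal over Mesenchymal it was -4.28, with -5.88 and -3.48 in the same order.

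In the summed levels Ncam1 spanned the narrowest range among the 3 non-blood groups, though not in the deposited log2 values, where it differed by -1.56 between Ventral and Mesenchymal. It stood at 285 CPM (281 to 289) in Mesenchymal, in Dorsal at 164 CPM (162 to 167), in Ventral at 159 CPM (157 to 162) and in HSC at 1.68 CPM (1.41 to 1.99). In single cells it ran from 3.92 to 1662 CPM with a median of 198 in Mesenchymal, from 0.909 to 1126 with a median of 108 in Dorsal, and from 0 to 1155 with a median of 102 in Ventral. The 3 ranges overlapped almost wholly. Dorsal and Ventral differed by a log2 fold of 0.05, which was 0.36 in even-index cells, -0.23 in odd-index cells and -0.17 without Ventral 41, so no order was read between them. The higher Mesenchymal level (log2 fold -0.84 for Ventral over Mesenchymal) was seen in the even-index cells, where it was -1.40, while in odd-index cells it was -0.02.

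**Figure D2:**
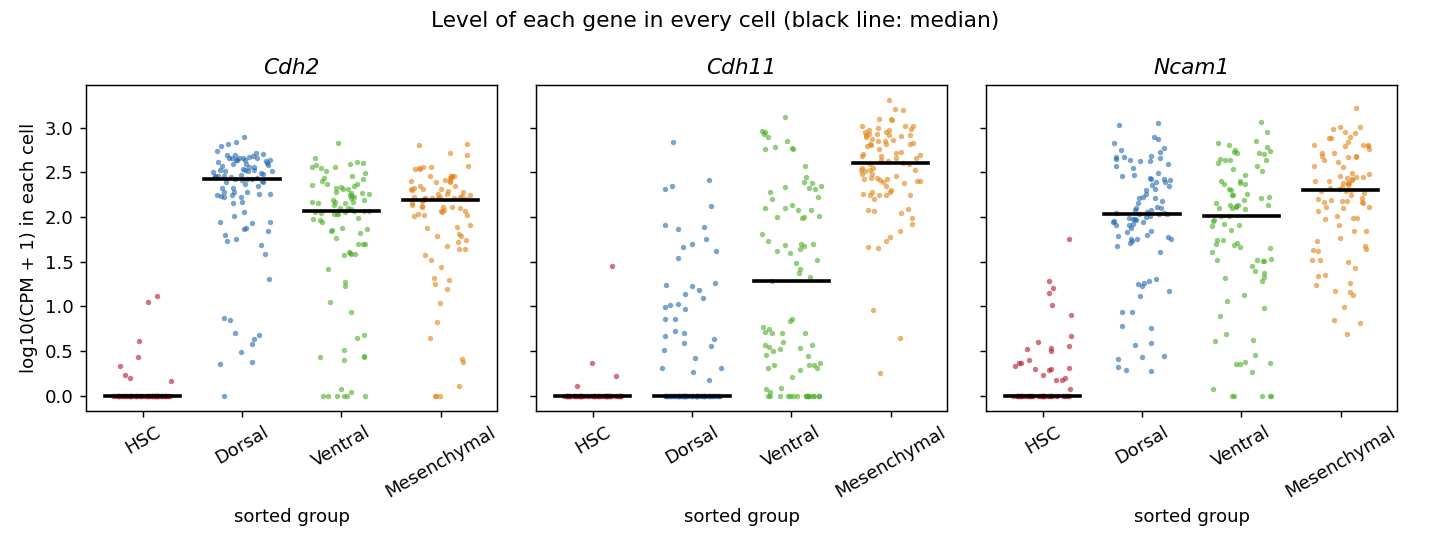
Level of each gene in every cell (vertical axis, log10 of CPM + 1) by sorted group (horizontal axis), 1 point per cell with a black line at the median. Cdh2 and Ncam1 overlap across Dorsal, Ventral and Mesenchymal, Cdh11 climbs from a median of 0 CPM in Dorsal to 18.3 in Ventral and 400 in Mesenchymal, and HSC cells lie near 0.

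Between Dorsal and Ventral, 1 of the 3 genes, Cdh2, was at least 2-fold higher in Dorsal, as were 10.1% of 13152 measured genes, and 1, Cdh11, in Ventral, as were 8.30%. Between Ventral and Mesenchymal, 1 of 3, Cdh11, was at least 2-fold higher in Mesenchymal, as were 12.9% of 13065 genes, and 0 of 3 in Ventral, where 17.1% were. Between Dorsal and Mesenchymal, Cdh2 was at least 2-fold higher in Dorsal, as were 17.5% of 13114 genes, and Cdh11 in Mesenchymal, as were 9.68%. Nothing is read from these counts, since the genes were chosen with the levels known.

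The levels of the 3 genes were compared with each other per kilobase of the longest coding transcript, which was 4843 bases for Cdh2, 5647 for Cdh11 and 6050 for Ncam1. In Dorsal, Cdh2 led at 59.8 CPM per kb, ahead of Ncam1 at 27.2 and Cdh11 at 5.01. In Mesenchymal, Cdh11 led at 100 CPM per kb (Ncam1 47.2, Cdh2 28.4). In the Ventral sum the 3 lay close together, with Cdh11 at 30.3, Ncam1 at 26.3 and Cdh2 at 21.4 CPM per kb. Single Ventral cells did not share this, with medians of 18.3 CPM for Cdh11, 102 for Ncam1 and 115 for Cdh2, not divided by length. Ncam1 has 4 coding transcripts in the basic annotation with a median of 2827 bases, and with that length it stood at 58.1 in Dorsal, 56.3 in Ventral and 101 in Mesenchymal CPM per kb, so its place relative to the cadherins depends on which splice forms were present.

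In HSC the 3 genes were near the limit of detection. Cdh2 had 23 counts in all, Cdh11 25 and Ncam1 139, over 82516453 counts. Relative to HSC, Cdh2 was 1018-fold (681 to 1598) higher in Dorsal, Cdh11 was 1842-fold (1252 to 2836) higher in Mesenchymal, and Ncam1 was 169-fold (143 to 202) higher in Mesenchymal. All 3 were at least 2-fold higher in each of the other groups than in HSC, as were 25.3% of measured genes for Dorsal, 24.5% for Ventral and 22.6% for Mesenchymal.

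Of the 25 Cdh11 counts in HSC, 23 lay in HSC 36, a cell with 300 CPM of Ptprc, 1.16 CPM of the endothelial cadherin gene Cdh5 and 15.2 CPM of Ncam1. Of the 23 Cdh2 counts, 13 lay in HSC 15, a cell with 401 CPM of Ptprc and 181 CPM of Cdh5. At least 5 Ncam1 counts were found in 6 of 65 cells, with HSC 4 highest at 56.1 CPM in a cell with 10.6 CPM of Ptprc. Pdgfrb and Sox10 were at 0 in each of the 7 HSC cells with at least 5 counts of any of the 3 genes. Of these cells HSC 36 alone had RNA of the mesenchymal marker Col3a1, at 8.33 CPM, and of the sympathoadrenal marker Dbh, at 6.71 CPM. Without HSC 36 the Cdh11 level of the group was 0.0326 CPM, 9.43 times lower, and without HSC 15 the Cdh2 level was 0.126 CPM, 2.26 times lower. The folds of these 2 cadherins over HSC above are therefore set largely by these cells. Ncam1 moved less, to 1.22 CPM without HSC 22, its cell with most counts, 1.38 times lower.

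Shares of positive cells were compared after each cell was thinned to 310000 counts, with at least 5 counts called positive. Cdh2 was positive in 89.1% (95% Clopper-Pearson limits 80.9 to 94.7) of 92 Dorsal, 80% (69.6 to 88.1) of 80 Ventral and 89.9% (80.2 to 95.8) of 69 Mesenchymal cells. These limits cover the counting of cells within a pool and are no test between groups. Cdh11 was positive in 18.5% (11.1 to 27.9) of Dorsal, 50% (38.6 to 61.4) of Ventral and 95.7% (87.8 to 99.1) of Mesenchymal cells. Ncam1 was positive in 84.8% (75.8 to 91.4), 78.8% (68.2 to 87.1) and 92.8% (83.9 to 97.6) in the same order. The span between the 3 groups was thus wide for Cdh11 and narrow for the other two.

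HSC cells gave the level found in a cell type with next to no RNA of these genes. Cdh2 was positive in 0 of 64 thinned HSC cells, which allows a share of up to 4.69% taken as 3 cells of 64 and has a Clopper-Pearson upper limit of 5.60%, Cdh11 in 1.56% (0.0396 to 8.40) and Ncam1 in 4.69% (0.977 to 13.1). Before thinning, the median cell held 943772 counts (HSC), 1033890 (Dorsal), 574689 (Ventral) or 505916 (Mesenchymal). Unthinned, Cdh11 was positive in 26.9% of Dorsal, 51.7% of Ventral and 97.7% of Mesenchymal cells.

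Combinations of the 3 genes in single cells differed between the groups. Among 92 thinned Dorsal cells, 61 were positive for Cdh2 and Ncam1 without Cdh11, and 14 for all 3. Among 80 Ventral cells, 24 had that Cdh2 and Ncam1 pair and 32 had all 3. Among 69 Mesenchymal cells, 55 had all 3 and 3 had Cdh2 and Ncam1 alone. A total of 61 of 64 HSC cells had none, as had 6 Dorsal, 8 Ventral and 0 Mesenchymal cells.

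The balance of the 2 cadherins was taken per cell as the Cdh11 share of the summed Cdh2 and Cdh11 counts, each divided by transcript length, in cells with at least 20 counts of both together, a measure chosen after the levels were seen. The median share was 0% in 83 Dorsal cells, 18% in 72 Ventral cells and 72.8% in 88 Mesenchymal cells. In Dorsal 71 cells were below 10% and 1 above 90%. Ventral cells spread over the whole range, with 32 below 10%, 34 between 10% and 90%, and 6 above 90%. In Mesenchymal 68 of 88 cells were above 50%, but 68 cells also lay between 10% and 90%, so most of these cells carried RNA of both.

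**Figure D3:**
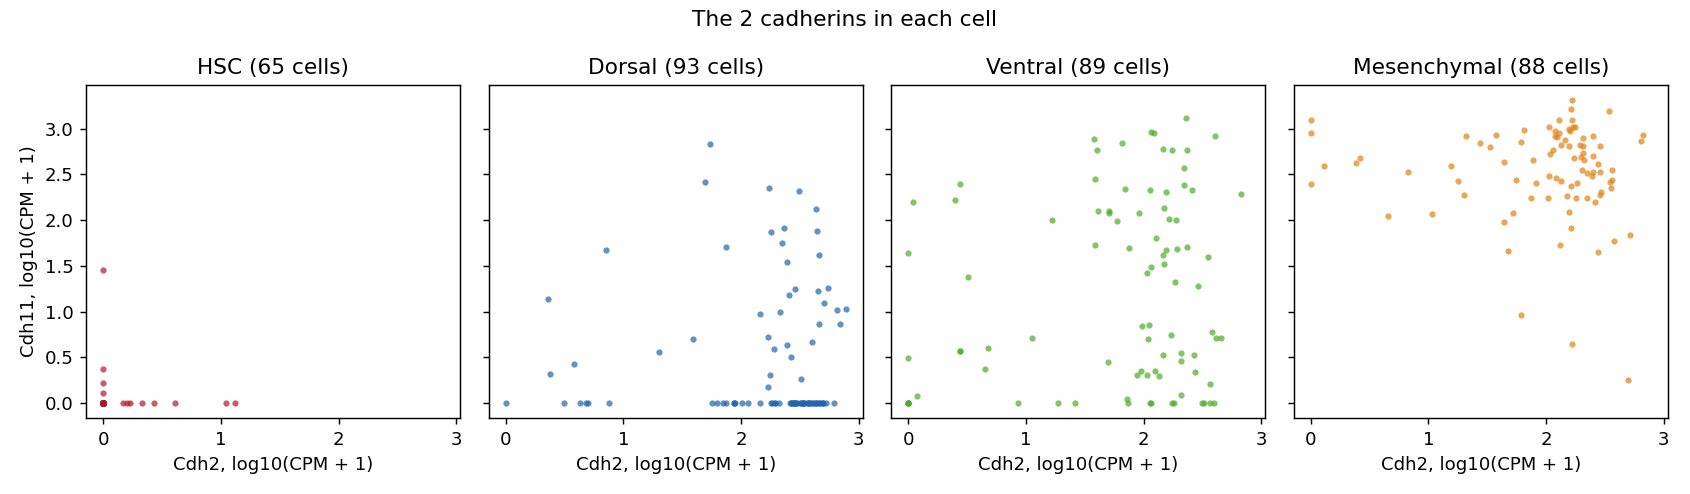
Cdh2 (horizontal axis) against Cdh11 (vertical axis), both as log10 of CPM + 1, with 1 point per cell and 1 panel per group. Dorsal cells line the bottom right, Mesenchymal cells fill the top, Ventral cells spread over both, and most HSC cells sit at the origin.

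Within each non-blood group the genes showed little relation from cell to cell. Over thinned cells, on a log2 scale, Pearson's r between Cdh2 and Cdh11 was 0.00 in 92 Dorsal, 0.12 in 80 Ventral and -0.05 in 69 Mesenchymal cells. For Cdh2 with Ncam1 it was 0.18, 0.26 and 0.04, and for Cdh11 with Ncam1 0.11, 0.29 and -0.04. In HSC these 2 pairs had r of 0.45 and 0.44, but 61 of 64 cells there were positive for none of the genes. Cells of a group share 1 pool, and weak correlations in sparse counts are no finding.

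The Ngfr+ sorts held several kinds of cell, so Dorsal and Ventral cells were split by other genes: Sox10, the transcription factor of crest and glial cells, Dbh, the enzyme that makes noradrenaline in sympathoadrenal cells, and, in cells with neither, Ptprc. At 5 thinned counts as the limit, 40 Dorsal and 20 Ventral cells had Sox10 only, 38 and 16 had both genes, 7 and 15 had Dbh only, 6 and 7 had neither but Ptprc, and 1 and 22 had none of the 3. Such a split is a range and not a cell type: 52 of 92 Dorsal and 34 of 80 Ventral cells had 1 to 9 Dbh counts, and 17 and 25 had 1 to 9 Sox10 counts.

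Cdh11 was concentrated in the Ventral cells with none of the 3 splitting genes. These 22 cells made up 27.5% of thinned Ventral cells and held 37.6% of their counts but 84.4% of their Cdh11 counts. Their Cdh11 level was 390 CPM, with single cells from 0 to 1322 and a median of 264, and 19 of 22 were positive. In the Ventral cells with Sox10 only it was 18.1 CPM with a median of 4.28, in those with both genes 24.4 CPM with a median of 12.2, and in those with Dbh only 119 CPM with a median of 4.10 and a highest cell of 777. Cells with Ptprc and neither Sox10 nor Dbh were at or below 2.70 CPM. Of all cells with Ptprc, 2 of 8 in Dorsal and 1 of 8 in Ventral also had Sox10 or Dbh, and these were positive for Cdh11. With 20 counts as the limit for the splitting genes, the cells with none numbered 26 and stood at 317 CPM. Without Ventral 41 the 22 cells stood at 623 CPM of Cdh11, 148 CPM of Cdh2 in place of 73.5, and 343 CPM of Ncam1 in place of 195. The Dbh only level of Cdh11 in Ventral was 73.4 CPM without its deepest cell, Ventral 8.

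The same 22 Ventral cells carried RNA of tissues other than crest. Wt1, a factor of the coelomic lining and mesonephros, was positive in 14 of them, all 14 also positive for Cdh11. Pax2, a mesonephric factor, was positive in 8, the epithelial markers Krt8 and Epcam in 4 and 2, Prrx1, a mesenchymal factor, in 9, and Pdgfrb in 4. Ngfr was positive in 12. Over all 80 thinned Ventral cells, 15 of 16 Wt1-positive cells were positive for Cdh11, with a median of 579 CPM, and 25 of 64 others, with a median of 3.37 CPM, a split chosen after the values were seen. The summed level of the 4 measured epithelial, coelomic and mesonephric markers ran from 0 to 397 CPM in the 22 cells with a median of 86.3, and had a median of 0.221 CPM in the Ventral cells with Sox10 only. Ventral 41, at 159 CPM of Cdh11, belonged to the 22 cells, with 563 CPM of Prrx1 and 0.0691 of Wt1.

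Dorsal 61 was the 1 Dorsal cell with none of the splitting genes. It held 683 CPM of Cdh11, 221 CPM of Wt1, 37.2 CPM of Pax2 and 404 CPM of Ngfr, with 4.07 CPM of Sox10. In the other Dorsal cells Cdh11 had a median of 0 in each split, with a highest cell of 258 CPM. Cells with none of the splitting genes were thus 1 of 92 in Dorsal and 22 of 80 in Ventral.

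Among cells with Sox10 or Dbh, 85 Dorsal and 51 Ventral, Cdh11 stood at 17.8 and 48.4 CPM, a log2 fold of -1.39 against -2.55 over all cells. In the cells with Sox10 only the ratio of Dorsal to Ventral was 0.639 (0.571 to 0.715), a log2 fold of -0.60, and in those with both genes -0.10, at 22.7 and 24.4 CPM. In those with Dbh only it was -1.26, with 7 Dorsal cells at 49.3 CPM and 15 Ventral cells at 119 CPM. These differences depend on single cells: without Ventral 10 the Ventral level with Sox10 only was 1.58-fold lower, and without Dorsal 59 the Dorsal cells with both stood at 8.53 CPM. With Dbh only, Dorsal stood at 10.4 CPM without Dorsal 93. Positive shares were 15% of 40 Dorsal and 35% of 20 Ventral cells with Sox10 only. With both genes they were 18.4% of 38 and 50% of 16. With Dbh only they were 42.9% of 7 and 40% of 15, or 3 and 6 cells, too few to read an order of the sides. In these Dbh only sets the 6 macrophage markers summed to as much as 8512 CPM in a Dorsal cell and 6954 CPM in a Ventral cell.

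Cdh2 followed Sox10 within the Dorsal sort. It stood at 381 CPM in Dorsal cells with Sox10 only, where single cells ran from 37.8 to 778 with a median of 331 and 40 of 40 were positive. In cells with both genes it stood at 251 CPM with a median of 276, and in the 7 cells with Dbh only at 109 CPM with a median of 101. In Ventral the same 3 splits stood at 162, 184 and 58.8 CPM, with medians of 165, 150 and 86.3, and the last was 114 CPM without Ventral 8. In the summed level, the Dorsal to Ventral difference was therefore present within the cells with Sox10 only, at a log2 fold of 1.23. It was smaller in those with both, at 0.44, although their medians were 276 and 150 CPM. With Dbh only it was 0.88, but without Ventral 8 the Ventral level of 114 CPM was not below the 109 CPM of Dorsal. The Dorsal level with Dbh only was 126 CPM without Dorsal 88, so the order of the sides depended on the cells left out. Cells with Ptprc and neither splitting gene had at most 6.52 CPM in Dorsal and 3.48 in Ventral, and no cell of these 6 and 7 was positive for any of the 3 genes. Their 6 macrophage markers summed to between 5075 and 12135 CPM in Dorsal and between 5836 and 8644 in Ventral.

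With 5 counts as the limit, the summed Ncam1 level differed less between the 3 Dorsal splits with Sox10 or Dbh than that of Cdh2 did. In Dorsal it stood at 149 CPM in cells with Sox10 only, 207 with both and 200 with Dbh only, with medians of 102, 146 and 98.4. In Ventral it stood at 74.7, 232 (131 without Ventral 6) and 267 CPM, with medians of 44.6, 85.8 and 181, and at 195 CPM with a median of 243 in the 22 cells with none. The Ventral cells with Sox10 only were thus the lowest of these, and their range, 0.203 to 608 CPM, overlapped with all others. Ptprc cells with neither gene had at most 7.73 CPM in Dorsal and 3.96 in Ventral. The 4 neuronal markers had a median summed level of 278, 531 and 2063 CPM in the first 3 Ventral splits, and of 14 CPM in the 22 cells with none, whose Ncam1 median was the highest of the 4. In Dorsal their medians were 79.3, 519 and 1735 CPM, an order that the Ncam1 medians did not share at 5 counts. With 20 counts as the limit, the Dorsal Ncam1 medians were 90.1, 162 and 420 CPM, in 56, 11 and 15 cells. The summed levels were 145, 169 and 349 CPM. In Ventral the medians were then 33.4, 127 and 269 CPM, and the summed levels 53.2, 310 and 294 CPM. The 26 Ventral cells with none had a median of 206 CPM, no longer the highest. The order of the Ncam1 levels thus depended on the limit.

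Mesenchymal cells were split at the median of Acta2, the actin of smooth muscle, which was 5 counts. Cdh11 stood at 778 CPM, with single cells from 8.12 to 2057 and a median of 653, in the 32 cells above it, and at 407 CPM, from 0.802 to 1041 with a median of 258, in the 37 cells at or below it. Cdh2 stood at 156 and 116 CPM with medians of 154 and 102, and Ncam1 at 228 and 331 CPM with medians of 171 and 212. The ranges overlapped for all 3 genes. Positive shares for Cdh11 were 96.9% and 94.6%, so the 2 sets differed in level more than in the share of cells. The 5 smooth muscle and pericyte markers had a median summed level of 3225 CPM above and 156 CPM at or below the median of Acta2.

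**Figure D4:**
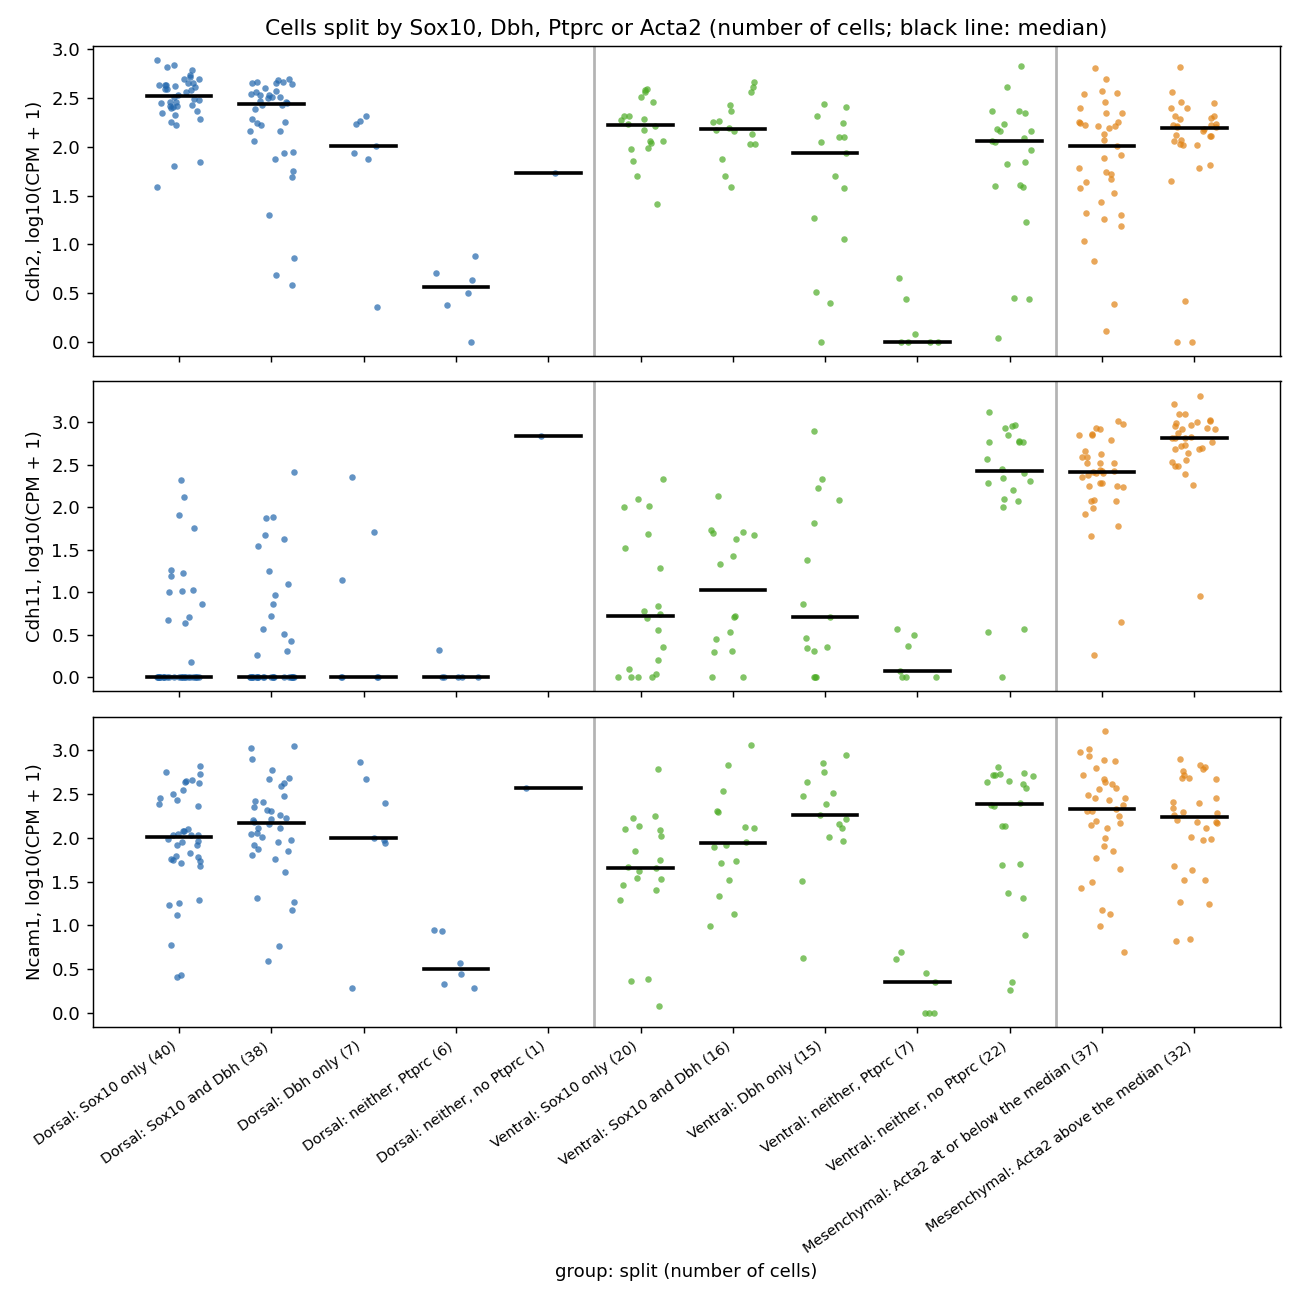
Levels of the 3 genes (vertical axes, log10 of CPM + 1) in single thinned cells split by Sox10 and Dbh, then Ptprc, in Dorsal and Ventral, and by Acta2 in Mesenchymal (horizontal axis, with the number of cells); black lines are medians. Cdh11 is high in the 22 Ventral cells with none of the splitting genes (median 264 CPM) and in Mesenchymal, and all 3 genes are low in the Ptprc cells without Sox10 or Dbh.

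Genes whose level tracked each member most closely were ranked by Pearson's r over thinned cells of the group where the member was highest. For Cdh2 in 92 Dorsal cells the top 5 of 8099 genes were Tspan7 (0.77), Cnn3 (0.77), Pls3 (0.77), Sox10 (0.76) and Ngfr (0.75). In 80 Ventral cells the same 5 had r from 0.40 to 0.55, and in 69 Mesenchymal cells from -0.08 to 0.15. The Dorsal values include the 6 Ptprc cells, which were low in Cdh2 and in Sox10. By Spearman's rho on unthinned levels these 5 genes ranked from 6 to 76 with rho from 0.55 to 0.67.

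For Cdh11 in 69 Mesenchymal cells the top 5 of 7043 genes were Acta2 (0.56), Sparc (0.53), Creb3l2 (0.47), Heyl (0.47) and Pdlim7 (0.45). In Ventral cells their r with Cdh11 lay between -0.17 and 0.17. Acta2 ranked 3, Sparc 5 and Pdlim7 4 by rho on unthinned levels, and Creb3l2 100. For Ncam1 in the same 69 cells the highest r was 0.46, and the top 5 were Crot, Gipc1, Grpel2, Apoe and Pja2. Apoe had r of 0.39 in Mesenchymal but -0.30 in Dorsal and -0.46 in Ventral.

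Of 19 genes listed for the cadherin family, 15 were measured. Besides Cdh2 and Cdh11, 3 of 11 with at least 100 counts stood higher by 2-fold or more in Dorsal than in Ventral and 2 lower, where 10.1% and 8.30% of all genes did. Their median log2 fold was 0.27 against 0.14 over all genes. Besides the same pair, 5 of 13 were higher in Ventral than in Mesenchymal and 5 lower, where 17.1% and 12.9% of all genes were, with a median of -0.28 against 0.09. Cdh6, a type II cadherin of early crest, stood at 320 CPM in Dorsal, 101 in Ventral and 5.21 in Mesenchymal. Cdh19, a cadherin of Schwann cell precursors, stood at 174, 53.1 and 0.267 CPM.

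Other cadherins accompanied Cdh11 in the mesenchyme. Cdh3, which encodes P-cadherin, stood at 74.5 CPM in Mesenchymal, 3.41 in Ventral and 0.481 in Dorsal, and was positive in 33 of 69 thinned Mesenchymal cells. Cdh18 stood at 23.7 CPM in Mesenchymal and 0.645 in Ventral, with 0 counts in Dorsal. Cdh5, VE-cadherin of endothelium, stood at 109 CPM in HSC, with at least 5 counts in 59 of 65 cells, and at 0.0430 CPM in Mesenchymal. Per kilobase, Cdh2 at 59.8, Cdh19 at 44.4 and Cdh6 at 39.2 CPM led the family in Dorsal, and Cdh11 at 100 CPM led it in Mesenchymal, ahead of Cdh2 at 28.4 and Cdh3 at 17.

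**Figure D5:**
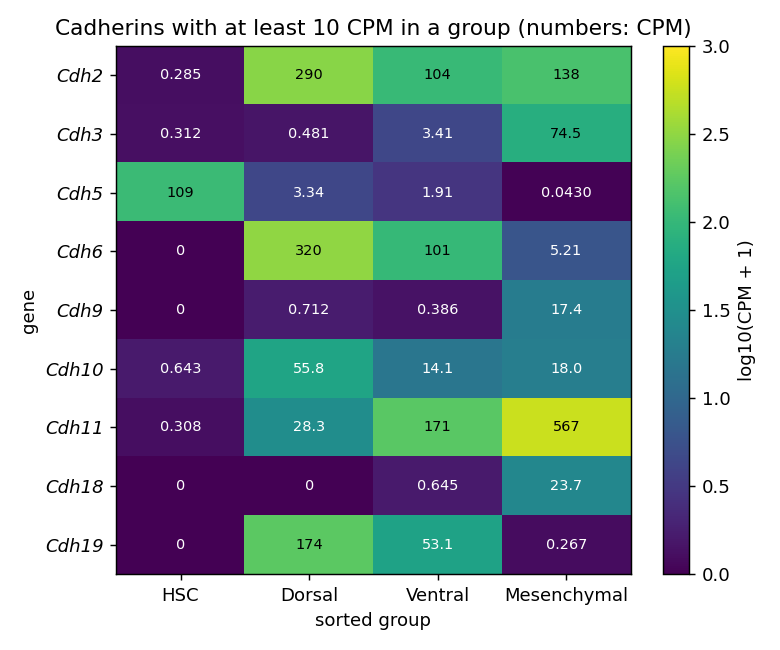
Levels of cadherin genes with at least 10 CPM in a group (rows) in the 4 sorted groups (columns), coloured by log10 of CPM + 1, with CPM printed in each cell. Cdh2, Cdh6 and Cdh19 are highest in Dorsal, Cdh3 and Cdh11 in Mesenchymal, and Cdh5 in HSC.

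Of 9 measured catenins and junction adaptors, 2 stood at least 2-fold higher in Dorsal than in Ventral and 1 lower, where 10.1% and 8.30% of all genes did, with a median log2 fold of 0.48 against 0.14. Between Ventral and Mesenchymal, 1 of 8 was higher in either group, where 17.1% and 12.9% of all genes were. Ctnnb1, beta-catenin, which binds the tails of classical cadherins, stood at 773 CPM in HSC and at 835, 683 and 638 CPM in Dorsal, Ventral and Mesenchymal. Ctnna1, alpha-catenin, which links that complex to actin, stood at 85.4, 232, 144 and 175 CPM in the same order. HSC thus had beta-catenin RNA at a like level with next to no Cdh2 or Cdh11 RNA, though with 109 CPM of the cadherin gene Cdh5. Afdn, an adaptor of nectin junctions, stood at 9.04 CPM in Dorsal and 57.8 in Ventral, a log2 fold of -2.55 that was -0.86 without Ventral 41.

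Immunoglobulin superfamily adhesion genes, with Ncam1 as 1 of 15 measured of 21 listed, were at least 2-fold higher in Dorsal than in Ventral for 8 and lower for 0, where 10.1% and 8.30% of all genes were, with a median log2 fold of 1.01 against 0.14 over all genes. Without Ventral 41 the number was 6, and with cells weighted equally 4. Mcam stood at 215 CPM in Dorsal and 63.2 in Ventral. L1cam, a neuronal adhesion molecule, stood at 102 and 48.2 CPM and at 0.900 in Mesenchymal. Cadm1 stood at 437 and 300 CPM. Ncam1, at a log2 fold of 0.05, was among the members that did not differ 2-fold between the sides.

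Of 7 measured enzymes and partners of Ncam1, 1 was at least 2-fold higher in Dorsal than in Ventral and 0 lower, a share near that of all genes (10.1% and 8.30%). Between Ventral and Mesenchymal 3 were higher in Ventral and 2 in Mesenchymal, where 17.1% and 12.9% of all genes were. With cells weighted equally 0 were higher in Dorsal and 1 in Ventral. St8sia2, which adds polysialic acid to NCAM in the embryo, stood at 41.6 CPM in Mesenchymal, 19.1 in Dorsal, 4.95 in Ventral and 0.599 in HSC, so it was highest in the group where Ncam1 was highest. St8sia4, the other polysialyltransferase, stood at 118 CPM in HSC and between 3.19 and 8.44 CPM in the other groups, although Ncam1 itself stood at 1.68 CPM in HSC. Fgfr1, a receptor that NCAM can engage, stood at 124 CPM in Mesenchymal, 48.6 in Ventral, 44.2 in HSC and 30.1 in Dorsal. Gap43, a growth cone protein linked to NCAM signalling, stood at 121 CPM in Ventral, 108 in Dorsal and 13.9 in Mesenchymal.

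Of 5 measured proteases and convertases that process cadherins, 1 was at least 2-fold higher in Dorsal than in Ventral, where 10.1% of all genes were, and 0 were without Ventral 41. Their median log2 fold was 0.81 against 0.14 over all genes, and 0.53 against 0.01 without Ventral 41. With cells weighted equally it was 0.15 against -0.02, and 0 were at least 2-fold higher in Dorsal. Adam10, which sheds N-cadherin, stood at 93.1 CPM in Dorsal, 96.2 in Ventral, 103 in Mesenchymal and 184 in HSC. Pcsk5, a convertase, stood at 26.1 CPM in Mesenchymal and 1.67 in Ventral.

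Of 6 measured transcription factors tied to cadherin switching, 2 were at least 2-fold higher in Mesenchymal than in Ventral and 0 lower, where 12.9% and 17.1% of all genes were, and without Ventral 41 the counts were 3 and 1. Snai2, a repressor active in migrating crest and mesenchyme, stood at 221 CPM in Mesenchymal, 9.81 in Ventral and 4.73 in Dorsal, and Twist2 at 52.2, 1.26 and 0.343 CPM. Zeb2 stood at 178, 115 and 153 CPM in the same order, a much flatter profile, and at 75.8 CPM in HSC.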

How the data were processed

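Full-length single-cell RNA libraries (Smart-seq2, per the labels' protocols) gave cells in 4 groups taken from the labels. Per the submitters' processing notes, kallisto 0.43.1 and build GRCm38 were used; the annotation, the summing to genes and the filters are not given in the sources used here. The deposited table of estimated counts, which are not whole and are not scaled for depth, has 14109 entries; 661 without a symbol (2.96% of counts) were left out. The deposited log2 table, scaled by the authors per cell, served for 1 alternative.

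The 3 genes, the lists and the splits were chosen with earlier results of these data known. Group counts were summed and divided by the group's total per 1000000; genes entered a comparison with 100 or more counts over its 2 groups, and 1 was added to CPM before taking log2. Estimated counts were rounded only for thinning and TMM scaling. For shares and splits each cell was drawn down to 310000 counts (the 10th percentile of cell totals, cut to a multiple of 10000), which left out 1 HSC, 1 Dorsal, 9 Ventral and 19 Mesenchymal cells; levels within splits are unthinned. Limits (95%) cover counting error only, and reads are not independent molecules. Correlations used log2(CPM/10 + 1) of genes positive in 25% of a group's cells. Coordinates and transcript lengths come from GENCODE M21 basic. Up to 4 genes per list were named by highest level or largest fold, and the 5 most correlated genes per member; Cdh5 is named as a marker. Single cells had been sorted, but doublets were not called and so are not excluded. Within groups, no pair of cells correlated above 0.60 (Mesenchymal) to 0.70 (Dorsal), so none was treated as a repeat. The fold and correlation steps were tested on simulated data. Alternatives comprised equal cell weights, TMM (edgeR 4.0.16), pseudocounts, totals, index sets, single cells left out and detection limits. Python 3.11.15, numpy 2.4.6, pandas 2.3.3 and scipy 1.17.1 were used.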

Additional observations from a re-analysis of the deposited data

How the results depend on the processing

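Values below are log2 folds in the order Cdh2, Cdh11 and Ncam1 for Dorsal over Ventral, then the same 3 for Ventral over Mesenchymal; the reported values were 1.47, -2.55, 0.05, -0.40, -1.72 and -0.84. With cells weighted equally they were 0.92, -2.51, 0.08, -0.24, -1.92 and -0.65. With totals that leave out Dock10 and Cep97 they were 1.52, -2.51, 0.09, -0.51, -1.82 and -0.94. In odd-index cells they were 1.20, -3.53, -0.23, -0.26, -2.36 and -0.02, and in even-index cells 1.82, -2.20, 0.36, -0.64, -1.28 and -1.40. In only the Dorsal and Ventral cells with Sox10 or Dbh, an alternative chosen after seeing the data, they were 1.22, -1.39, 0.16, -0.02, -3.53 and -0.88. With Cdh11 between Dorsal and Ventral left unchanged within counting limits, TMM scaling gave 1.40, -0.02, -0.48, -1.80 and -0.92, values from the deposited log2 data were 1.37, 0.55, -0.80, -4.49 and -1.56, and leaving out the deepest Ventral cell 1.18, -0.17, -0.11, -1.70 and -0.63. Also chosen after seeing the data were the next 2 settings. Without Dorsal 61, Cdh11 and Ncam1 between the sides were -3.30 and 0.01. Without cells with Ptprc, the Ventral over Mesenchymal folds were -0.30, -1.62 and -0.74. A pseudocount of 0.1 left all 6 within counting limits. The cause of these shifts was not tested. Cdh2 and Cdh11 kept their sign in each setting named here, and Ncam1 between the sides did not. The Cdh2 fold for Ventral over Mesenchymal shrank to -0.02 in the cells with Sox10 or Dbh, so no order was read from it.

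Of 72 alternative shares of positive cells, 51 stayed within the 95% limits. With at least 1 count, the share was 95.7% for Cdh2 in Dorsal (95.7% also without thinning), 32.6% and 73.8% for Cdh11 in Dorsal and Ventral, and 28.1%, 94.6%, 91.2% and 100% for Ncam1 in HSC, Dorsal, Ventral and Mesenchymal. With at least 20 counts, it was 67.5% and 71% for Cdh2 in Ventral and Mesenchymal, 0%, 8.70% and 36.2% for Cdh11 in HSC, Dorsal and Ventral, and 0%, 69.6%, 58.8% and 76.8% for Ncam1 in the 4 groups. Thinned to 120000 counts, it was 0% and 10.8% for Cdh11 in HSC and Dorsal and 83% for Ncam1 in Mesenchymal; in odd-index HSC cells Cdh11 was at 0%.

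Each group is 1 pool, so pool and group cannot be told apart. Limits cover counting error within a pool and say nothing of spread between embryos. Shallow Mesenchymal cells were most often left out by thinning (19 of 88). A gene near 5 counts at 310000 can be missed in a cell. The deposited values are per gene, so splice forms of Ncam1 were not separated. No paired analysis was possible because the replicate numbers only follow accession order and each group counts as 1 sample.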
